A study of Mus musculus with 4 samples.

Results

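The interferon genes described here are 50 mouse genes: targets of the type I and type II interferon responses, the transcription factors that drive them and the receptors that start them. They were chosen by name and matched by symbol, and all 50 were found among the 55487 genes of the deposited count table. By role they fall into 21 targets of the type I response, 3 RNA sensors, 10 GTPases of the interferon-gamma response, 4 genes of the Ifi200 family, 7 interferon regulatory factors (IRFs) grouped with Stat2, and 4 receptor chains. The measurement is RNA-seq in bulk of sorted murine skeletal stem cells (SSC), the cells of growing bone that give rise to cartilage, bone and stroma. The sham group has 2 libraries (Sham-SSC) from sham-operated mice and the ovariectomy group 2 (Ovx-SSC) from mice whose ovaries were removed. All 4 libraries come from wild-type (WT) mice at 8 weeks. The labels do not say whether that is the age or the time after surgery. The cells came from collagenase-digested long-bone metaphysis and were freshly sorted by flow cytometry on the antigens CD51, CD90, CD105, CD200, 6C3, Tie2, CD45 and Ter119. No label ties a library to its own animal or pool, so the p-values reflect only how far these samples spread, and that spread may be technical.

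Type I interferons signal through the receptor chains Ifnar1 and Ifnar2, and type II interferon, interferon-gamma, through Ifngr1 and Ifngr2. Janus kinases at the receptors phosphorylate STAT proteins. A complex that holds Stat2 and Irf9 binds interferon-stimulated response elements (ISRE), and the interferon-gamma arm acts through gamma-activated sites (GAS). IRF proteins bind ISRE-like sequences as well, so one promoter can be read by several arms of the response. In bone, interferon signalling is known as a brake on osteoclast formation, and estrogen loss after ovariectomy as a cause of bone loss.

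Of the 50 interferon genes, 48 had enough reads to be tested, and of these 7 rose after ovariectomy and none fell. The 7 are Irf1, the best known IRF of the interferon-gamma response, the GTPases Gbp2 and Gbp7, the Ifi200 genes Ifi204, Ifi207 and Ifi211, and the type I target Ifit1. Irf1 was 2.21-fold higher and Ifi211 16.4-fold higher. Ifi211 reached the count required for testing in both ovariectomy libraries but not in both sham libraries. A call is an adjusted p under 0.05 in edgeR's quasi-likelihood test after Benjamini-Hochberg adjustment across 17120 tested genes. In that test 4.18% of all genes were called changed, 2.98% higher and 1.2% lower.

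The motifs in the promoters of these genes are shown first, because the pathway is known to act through such sequences. Both patterns named next were searched on both strands, overlapping matches included, from 250 bases before to 50 bases after each RefSeq start site (GRCm38.p6). The first was the ISRE core GAAANNGAAA, which reads TTTCNNTTTC on the other strand, and the second was the GAS pattern TTCNNNGAA. RefSeq promoters were matched for 38 of the 50 genes, 44 promoters in all. The ISRE core was present in 20 of the 44 (45.5%), against 1131 of 32851 promoters of all genes (3.44%). The GAS pattern was present in 13 of the 44 (29.5%), against 8.3% of all promoters. The genes were chosen by name as interferon genes, so such an excess is built into the choice and is no result of these libraries. Among the genes that rose, 6 had a promoter entry and 5 of them held an ISRE core. The GAS pattern was found in 2 of the 6, Irf1 and Gbp7. These are 30-base or 29-base windows on the strand of each gene, with the matched motif in capitals:
Ifit1 (chr19:34640794-34640823, 85 bases before the start): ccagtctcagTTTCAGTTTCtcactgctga
Ifit1 (chr19:34640775-34640804, 104 bases before the start): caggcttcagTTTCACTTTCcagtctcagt
Gbp2 (chr3:142620594-142620623, 59 bases before the start): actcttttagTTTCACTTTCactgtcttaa
Gbp7 (chr3:142530273-142530302, 53 bases before the start): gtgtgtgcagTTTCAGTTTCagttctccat
Ifi207 (chr1:173741831-173741860, minus strand, 41 bases before the start): cctagccaggGAAATCGAAAattaagaaca
Ifi211 (chr1:173913064-173913093, minus strand, 37 bases before the start): caaagccaggGAAATTGAAAgctatgaacg
Irf1 (chr11:53769914-53769942, GAS pattern, 90 bases before the start): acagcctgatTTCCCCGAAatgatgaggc
Gbp7 (chr3:142530220-142530248, GAS pattern, 106 bases before the start): tccgttttctTTCCAGGAAaagcagaagc
Gbp7 (chr3:142530239-142530267, GAS pattern, 87 bases before the start): aagcagaagcTTCTCAGAAagtcagcaca

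Genes that did not pass the test carry the same letters. Of the 32 other genes with a promoter entry, 15 held an ISRE core. Ifi203, which was not called, has the same 10-base match as Ifi207, and Ifit3, whose ovariectomy libraries lay below its sham libraries, has both of the 10-base matches of Ifit1:
Ifi203 (chr1:173942508-173942537, minus strand, 35 bases before the start): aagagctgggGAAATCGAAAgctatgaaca
Ifit3 (chr19:34583397-34583426, 122 bases before the start): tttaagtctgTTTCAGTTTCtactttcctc
Ifit3 (chr19:34583363-34583392, 156 bases before the start): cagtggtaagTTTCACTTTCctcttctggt
By role, the core was found in all 3 Ifi200 genes and both RNA sensors with a promoter entry, in 6 of 7 GTPases and in 7 of 14 type I targets. It was found in 2 of the 8 IRFs and Stat2, and in none of the 4 receptor chains. A match is a run of letters, not a bound site.

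The libraries held between 18291436 and 23721078 counts, and a single count was worth between 0.0423 and 0.0519 CPM. Levels below are TMM-scaled CPM, the counts relative to a scaled library total. The labelled cell type was checked against marker genes. The chondrocyte collagen Col2a1 averaged 69282 CPM in sham and 38569 CPM in ovariectomy libraries, and the osteoblast collagen Col1a1 averaged 75620 and 59134 CPM. Ptprc, which encodes the sort antigen CD45 of leukocytes, averaged 7.40 and 4.996 CPM. Of the other sort antigens, Cd200 fell, from a mean of 270.6 to 163.6 CPM (edgeR adjusted p = 0.0462), and Itgav (CD51) averaged 68.9 and 70.5 CPM. The genes that follow in this paragraph were named after their values were seen. Thy1 (CD90) had 4 and 3 counts in sham and 5 and 3 counts in ovariectomy libraries, too few to be tested. Eng (CD105) averaged 36.9 and 79.2 CPM, Enpep (6C3) 1.72 and 4.02 CPM and Tek (Tie2) 2.87 and 8.65 CPM. For Eng, Enpep and Tek the ovariectomy values lay above the sham values, and none was called. The part of such differences in the interferon genes was not tested. In these bulk libraries more cells of a type and more RNA per cell cannot be told apart.

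Interferon transcripts themselves were barely present. None of the 21 interferon genes outside the list of 50 had enough reads to be tested, and 13 of them had no count in any library. Together they gave 14 and 1 counts in the sham and 9 and 11 counts in the ovariectomy libraries. Ifng, the gene of interferon-gamma, had 0 counts in all 4, and Ifnb1, the gene of interferon-beta, had 3 counts in ovariectomy 2 and 0 in the others. Siglech, a marker of plasmacytoid dendritic cells, which make much of the body's type I interferon, had 0 and 42 counts in the sham and 0 and 10 in the ovariectomy libraries. The limit that a count of 0 allows, 3 counts, lies between 0.127 and 0.156 CPM, and covers counting error only.

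The receptors were present throughout and none was called changed. Ifngr1, the ligand-binding chain for interferon-gamma, averaged 90.02 CPM ± 1.502 (SD, n = 2) in sham and 110 ± 9.12 in ovariectomy libraries. Ifngr2, its signalling partner, averaged 66.9 ± 6.48 and 57.6 ± 0.583 CPM. Ifnar2, the type I chain that binds ligand most tightly, stood at 33.5 and 34.1 CPM in the sham and 46.9 and 51.4 CPM in the ovariectomy libraries. All of its ovariectomy values lay above its sham values, by 0.54 ± 0.15 on the log2 scale (edgeR adjusted p = 0.0993). The 95% intervals of the log2 differences were 0.19 to 0.88 for Ifnar2, 0.01 to 0.73 for Ifnar1, -0.01 to 0.59 for Ifngr1 and -0.54 to 0.11 for Ifngr2. The receptor chains' summed level was 236 and 226 CPM in the sham and 256 and 282 CPM in the ovariectomy libraries.

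Downstream of the receptors, Stat2, Irf9 and the kinases Jak1, Jak2 and Tyk2 did not pass the test. Stat2, which joins Irf9 in the type I arm, averaged 55.8 ± 5.77 CPM in sham and 45.8 ± 3.97 CPM in ovariectomy libraries, and Irf9 averaged 48.1 ± 6.81 and 39.8 ± 0.0961 CPM. For both genes every ovariectomy value lay below every sham value, by -0.28 on the log2 scale, and neither was called. Of the kinases, Jak1 differed by 0.24, Jak2 by 0.07 and Tyk2 by 0.71 on the log2 scale (edgeR adjusted p = 0.305, 0.930 and 0.111).

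Irf1 carried most of the difference in summed level between the groups. Irf1 (chr11:53770014-53778374) stood at 259 and 242 CPM in the sham and 555 and 551 CPM in the ovariectomy libraries. The values of each group lay close together and the groups did not overlap. Its log2 fold change was 1.14 ± 0.11 (SE; edgeR adjusted p = 0.00417). Per kilobase of exon it was the most abundant of the 50 genes in both groups, at 63.0 CPM per kb in sham and 139 CPM per kb in ovariectomy libraries. It held 24.2% and 24.3% of the summed level of the 50 genes in the sham libraries, against 36.3% and 35.6% after ovariectomy. Summed over the 50 genes the level was 1068 and 998 CPM in sham against 1529 and 1547 CPM in ovariectomy libraries. Without Irf1 it was 809 and 756 against 974 and 996 CPM.

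Irf1 is also an early-response gene of many other stimuli. Of 12 immediate-early genes, which cells switch on within minutes of stress, 6 rose and none fell, beside 2.98% and 1.2% of all genes tested. The most abundant, Egr1, averaged 13772 CPM in sham and 13700 CPM in ovariectomy libraries. It was the only 1 of the 12 with a log2 difference below 0. Fos, the next most abundant, averaged 5270 and 7001 CPM and was called higher (edgeR adjusted p = 0.0399). The summed level of the 12 genes was 48484 CPM in sham 1, 44958 CPM in sham 2, 58339 CPM in ovariectomy 1 and 59010 CPM in ovariectomy 2. Their part in the rise of Irf1 was not tested.

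No other IRF was called. Irf7, which amplifies the type I response, stood at 18.8 and 19.6 CPM in the sham and 31.2 and 32.6 CPM in the ovariectomy libraries, a log2 difference of 0.73 ± 0.17 (edgeR adjusted p = 0.0648). Irf8, a factor of the myeloid and B cell lineages, stood at 4.91 and 4.41 CPM in sham against 10.7 and 11.9 CPM in ovariectomy libraries, a log2 difference of 1.28 ± 0.28 (edgeR adjusted p = 0.0535). Both genes had tight, non-overlapping groups and missed the threshold by little. They passed it with limma-voom, at adjusted p = 0.0467 for Irf7 and 0.0405 for Irf8, and with library totals alone, at 0.0369 and 0.0366. Irf3, which is switched on by phosphorylation and not mainly by its own transcription, differed by 0.65 (edgeR adjusted p = 0.118). Irf2, an antagonist of Irf1 at shared sites, differed by -0.39, with a 95% interval of -0.89 to 0.10. Irf5 was read at 2.72 CPM in sham 1, 0 in sham 2, and 4.44 and 4.57 CPM in the ovariectomy libraries.

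Of the subgroups, the Ifi200 family had the largest median log2 difference, 2.96 over its 4 genes. Ifi203 and Ifi211 reached the count required for testing in both ovariectomy libraries but not in both sham libraries, so they lean towards higher values. The 2 genes with enough reads in both groups, Ifi204 and Ifi207, hold the middle values of the 4. Their median is therefore also 2.96, which is no separate check. The genes of the family lie close together on chromosome 1 (coordinates are GRCm38). They encode nuclear and cytosolic proteins, most with a DNA-binding HIN domain. Ifi204 (chr1:173747293-173766943) stood at 1.65 and 3.12 CPM in the sham and 19.6 and 17.0 CPM in the ovariectomy libraries. Its log2 fold change was 2.94 ± 0.36 (SE; edgeR adjusted p = 0.00688). Ifi211 (chr1:173896345-173913046) stood at 0.401 and 0.757 CPM in sham against 7.36 and 11.6 CPM in ovariectomy libraries, a log2 fold change of 4.02 ± 0.49 (edgeR adjusted p = 0.00692). Ifi207 (chr1:173723427-173741747) went from 0.491 and 1.20 CPM to 4.95 and 8.41 CPM, 2.97 ± 0.58 on the log2 scale (edgeR adjusted p = 0.0359). In all 3 genes the lowest ovariectomy value was several times the highest sham value.

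Ifi203, the family's remaining listed gene, averaged 0.668 ± 0.818 CPM in sham and 4.06 ± 1.08 CPM in ovariectomy libraries and was not called. Its 95% interval on the log2 scale ran from 0.32 to 4.86. The summed level of the 4 genes was 2.63 and 6.32 CPM in the sham and 35.2 and 41.9 CPM in the ovariectomy libraries. Other genes of the cluster, named after their values were seen, did not all follow. Ifi205 had 23 and 1 counts in sham and 73 and 80 counts in ovariectomy libraries, whereas Mndal had 41 and 20 against 50 and 35 counts. Ifi206 was read in sham 1 alone, with 37 counts. The genes of this cluster are close relatives, so reads shared between copies could have been dropped or split in counting.

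The GTPases of the interferon-gamma response gave 2 calls among 10 genes, both higher, beside 2.98% called higher among all genes tested. Guanylate-binding proteins (Gbp) and immunity-related GTPases attack the membranes around intracellular microbes. Gbp2 (chr3:142620602-142638008) stood at 5.93 and 6.41 CPM in the sham and 19.7 and 24.2 CPM in the ovariectomy libraries, a log2 fold change of 1.83 ± 0.24 (SE; edgeR adjusted p = 0.00838). Gbp7, its neighbour (chr3:142530342-142550149), stood at 6.56 and 6.23 CPM in sham against 16.2 and 13.9 CPM in ovariectomy libraries, 1.23 ± 0.25 on the log2 scale (edgeR adjusted p = 0.0415). Both sham values of each gene lay close together and far below the ovariectomy values. Gbp7 shares 11.3% of its exon length with another annotated gene, so its counts carry that uncertainty.

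The rest of this subgroup did not pass. Gbp9 had 2 counts in the sham and 81 in the ovariectomy libraries. That is a ratio of 42.4 by counts per library total, with an exact 95% interval of 11.4 to 356 for counting error only (edgeR adjusted p = 0.0760). Gbp3 averaged 2.49 ± 1.82 and 6.99 ± 0.997 CPM, and Ifi47 1.40 ± 0.601 and 4.79 ± 0.134 CPM, in sham and ovariectomy libraries. Irgm1, a regulator of the other immunity-related GTPases and of autophagy, stood at 87.4 and 61.6 CPM in sham against 109 and 107 CPM in ovariectomy libraries, a log2 difference of 0.54 (edgeR adjusted p = 0.162). Igtp averaged 19.0 ± 4.80 and 23.5 ± 3.87 CPM. In the same order Iigp1 averaged 3.32 and 8.33 CPM, Gbp5 0.980 and 2.47 CPM and Gbp6 1.38 and 1.98 CPM, and the groups overlapped for Gbp6, which shares 29.0% of its exon length with another gene. The median log2 difference of the 9 GTPases with enough reads in both groups was 1.32, beside -0.02 for the 13665 such genes in all.

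Of the 21 type I targets 19 were tested and 1 was called higher, Ifit1, beside 2.98% of all genes tested. The Ifit proteins bind foreign RNA and block its translation. Ifit1 (chr19:34640871-34650009) stood at 4.24 and 2.14 CPM in the sham and 18.7 and 15.2 CPM in the ovariectomy libraries, a log2 fold change of 2.41 ± 0.37 (SE; edgeR adjusted p = 0.0155). Its relatives on chromosome 19 did not follow in step. Ifit2 stood at 10.97 and 7.44 CPM in sham against 15.6 and 23.8 CPM in ovariectomy libraries, a log2 difference of 1.10 (edgeR adjusted p = 0.104). Ifit3 stood at 65.6 and 50.9 CPM in sham against 49.4 and 29.6 CPM in ovariectomy libraries, a log2 difference of -0.56 with a 95% interval of -1.15 to 0.04.

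The Ifit genes thus differed in the order of the groups: the ovariectomy values were above the sham values for Ifit1 and Ifit2 and below them for Ifit3. The CPM of Ifit3 was 15.5 and 23.8 times that of Ifit1 in the sham libraries, against 2.64 and 1.95 times after ovariectomy, each ratio taken within a library. The near-identical gene Ifit3b, looked up after these values were seen because it can share reads with Ifit3, had 265 and 217 counts in sham and 173 and 110 counts in ovariectomy libraries.

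Other type I targets were low, and several hung on sham 1. Isg15, a ubiquitin-like tag for proteins, stood at 0.268 and 0.490 CPM in sham against 1.82 and 2.44 CPM in ovariectomy libraries, a log2 difference of 2.47 (edgeR adjusted p = 0.146). Usp18, which removes Isg15 and damps the type I receptor, averaged 2.36 ± 0.438 and 5.18 ± 0.751 CPM. The oligoadenylate synthetase Oas2, which feeds an RNA-degrading enzyme, had 2 counts in sham and 60 in ovariectomy libraries. The GTPase Mx2 was read at 0 and 1.51 CPM in sham against 3.17 and 1.35 CPM in ovariectomy libraries, and Rsad2 (viperin) at 0 and 2.00 against 3.68 and 2.18 CPM. For Mx2 the groups overlapped and for Rsad2 they did not, but in both genes sham 2 lay near ovariectomy 2 and only sham 1 was at 0. Oas1a averaged 0.490 and 2.06 CPM in sham and ovariectomy libraries, its relative Oasl2 1.69 and 3.84 CPM, and the ADP-ribosyltransferase Parp14 0.691 and 2.10 CPM. Ifi44, like Oas2, had 2 and 60 counts, and Zbp1, a sensor of Z-form nucleic acids, averaged 0.535 and 0.905 CPM with overlapping groups.

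Ifi27, Samhd1 and Trim25 were read at higher levels, and none was called. Ifi27 averaged 65.4 ± 0.525 CPM in sham and 67.4 ± 6.05 CPM in ovariectomy libraries, with a 95% interval of the log2 difference of -0.27 to 0.36. Samhd1, which breaks down nucleotides that viruses need, averaged 46.5 ± 0.413 and 49.0 ± 4.34 CPM, with an interval of -0.26 to 0.41. Trim25, a ubiquitin ligase that helps activate the RNA sensor Ddx58, averaged 18.5 ± 1.84 and 16.0 ± 2.06 CPM. Bst2 (tetherin), which holds budding virus at the cell surface, averaged 3.63 and 5.66 CPM, Xaf1 2.14 and 3.63 CPM and Ifi35 13.8 and 17.7 CPM. The groups of these 3 genes did not overlap, with ovariectomy higher, and none was called. Per kilobase of exon, Ifi27 was the second most abundant of the 50 genes in sham libraries at 44.6 CPM per kb, ahead of Ifit3 at 33.4 CPM per kb. In ovariectomy libraries Ifi27 was at 46.0 and Ifit3 at 22.6 CPM per kb. The summed level of the 21 type I targets was 237 and 222 CPM in sham against 273 and 247 CPM in ovariectomy libraries.

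**Figure D1:**
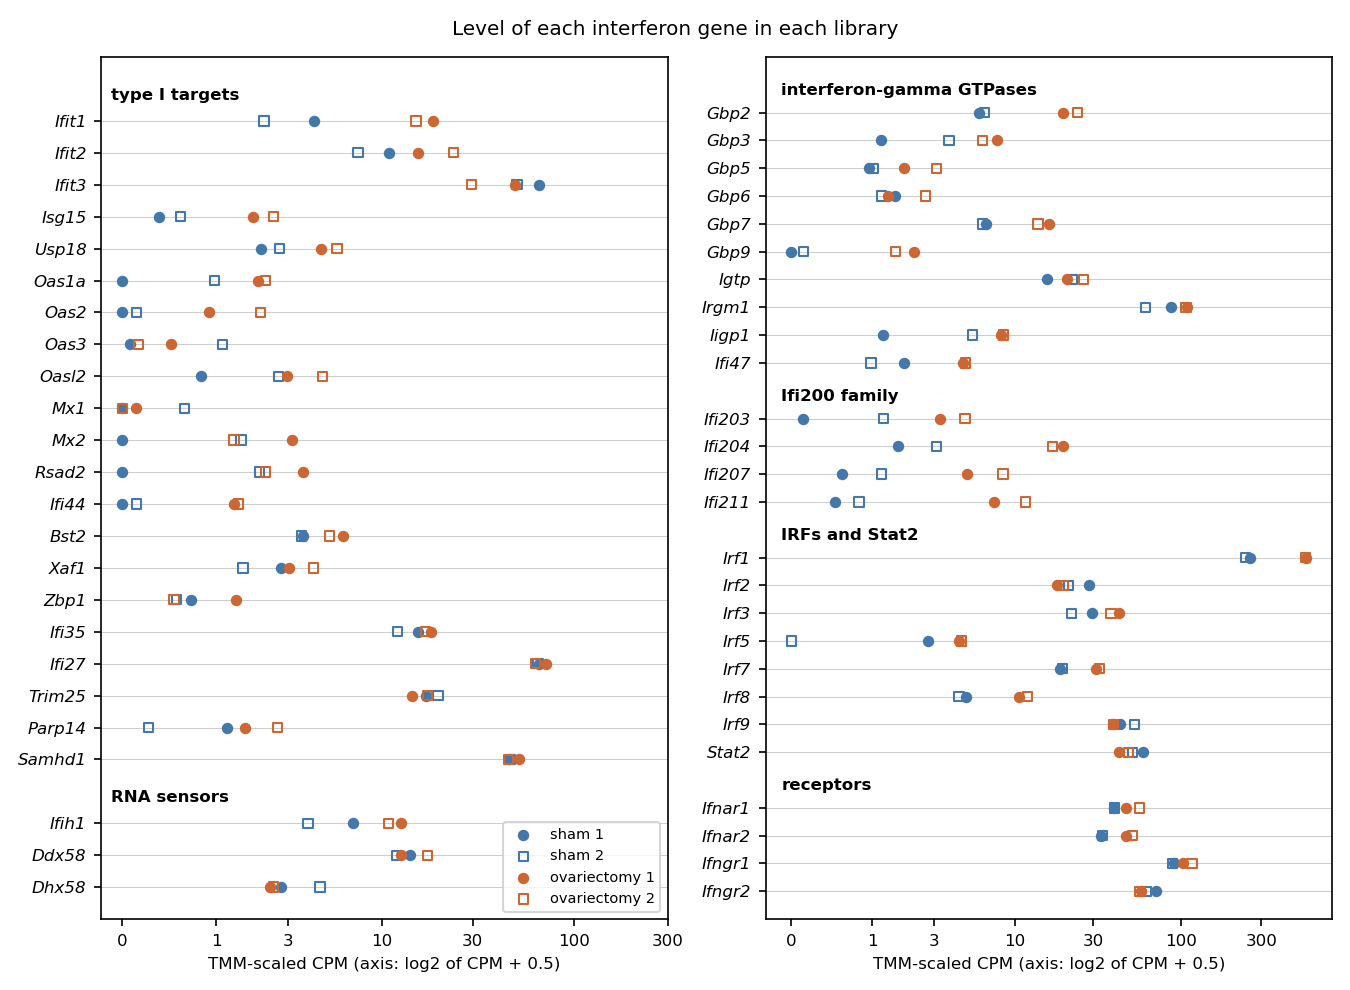
TMM-scaled CPM of each of the 50 interferon genes (rows, by role) in each library, on an axis of log2(CPM + 0.5), with sham in blue, ovariectomy in orange, replicate 1 filled and replicate 2 open. The ovariectomy points of the Ifi200 genes, Gbp2, Gbp7, Ifit1 and Irf1 stand apart to the right of the sham points, Ifit3 shows the opposite order, and the filled blue points of Oas1a, Oas2, Mx2 and Rsad2 sit at 0.

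Among the RNA sensors, which detect viral RNA in the cytoplasm, no gene was called. Ifih1 (MDA5) averaged 5.44 ± 2.15 CPM in sham and 11.7 ± 1.26 CPM in ovariectomy libraries, a log2 difference of 1.11 (edgeR adjusted p = 0.137). Ddx58 (RIG-I) differed by 0.19 and Dhx58 (LGP2) by -0.62 on the log2 scale. The ovariectomy values lay above the sham values for Ifih1 and below them for Dhx58, and overlapped them for Ddx58.

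Across the list, 48 of the 50 genes had enough reads to be tested. Mx1 had 0, 12, 2 and 0 counts in sham 1, sham 2, ovariectomy 1 and ovariectomy 2, and Oas3 had 1, 25, 9 and 2; these were too few. Of the 48, 12 reached the required count in both ovariectomy libraries but not in both sham libraries, so their presence among the tested genes already leans towards higher values. They were Isg15, Oas1a, Oas2, Mx2, Rsad2, Ifi44, Zbp1, Parp14, Gbp9, Ifi203, Ifi211 and Irf5, and of these only Ifi211 was called. The other 36 had enough reads in both groups. Their median log2 difference was 0.65, with 6 called higher and none lower, beside -0.02 and 3.30% called higher for all genes with enough reads in both groups. Their groups did not overlap, with ovariectomy higher, for 24 genes, and with ovariectomy lower for 6. Such separation was common: of all 13665 genes with enough reads in both groups, 3541 were separated with ovariectomy higher and 3443 with ovariectomy lower. Over all tested genes the shares were 25.5% and 23.9%. Without adjustment 17 of these 36 had a p under 0.05, beside 19.5% of all genes with enough reads in both groups. Over the 48 tested it was 23, beside 18.4% of all genes tested.

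**Figure D2:**
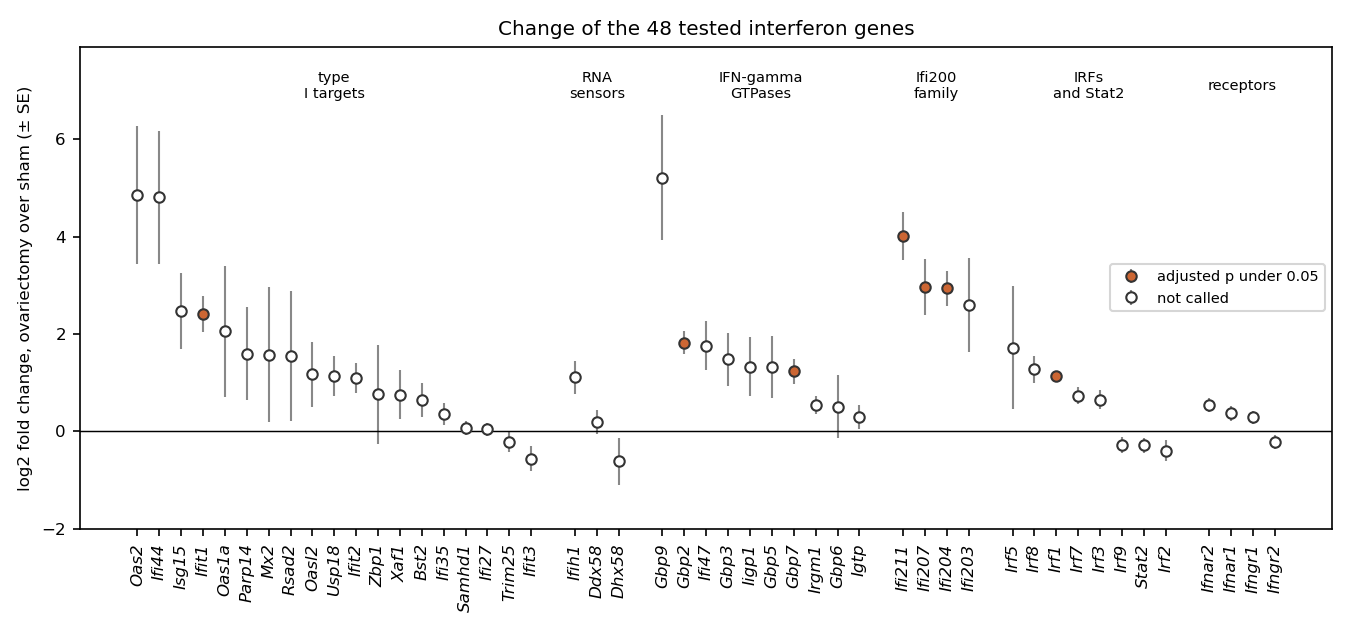
Log2 fold change of ovariectomy over sham (y axis) with its SE for the 48 tested interferon genes, grouped by role and ordered within each group. Filled points mark the 7 genes with an edgeR adjusted p under 0.05, and the tall bars of Oas2, Ifi44 and Gbp9 belong to genes with 2 counts in the sham libraries.

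Genes of the same pathway outside the 50 were taken from a separate list of 123 genes, of which 84 were tested. Of these, 9 rose and none fell, beside 2.98% called higher and 1.2% called lower among all genes tested. Of the 84, 9 had enough reads in both libraries of the ovariectomy group only, Cxcl9 and Phf11b among them, and these lean towards higher values by that choice. Over the 71 with enough reads in both groups, 6 rose, none fell, and the median log2 difference was 0.39. For all genes with enough reads in both groups, 3.30% were called higher and the median was -0.02. Cxcl9 and Cxcl10, chemokines that draw T cells and are classic targets of interferon-gamma, both rose. Cxcl10 averaged 3.65 ± 1.27 CPM in sham and 19.2 ± 2.05 CPM in ovariectomy libraries (log2 fold change 2.39 ± 0.32; edgeR adjusted p = 0.00888). Cxcl9 had no count in either sham library and 35 and 42 counts in the ovariectomy libraries. It was at least 13.7-fold higher against a floor of 3 counts per library (edgeR adjusted p = 0.0390).

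The remaining 7 calls were Ifitm3, Lgals9, Ly6e, Phf11b, Socs3, Parp12 and Slfn5, the last of these with 2 counts in sham and 105 in ovariectomy libraries; Parp12 and Slfn5 were named after their values were seen. Ifitm3, a membrane protein that blocks viral entry, averaged 14.8 ± 6.66 CPM in sham and 74.2 ± 3.32 CPM in ovariectomy libraries (edgeR adjusted p = 0.00707). Lgals9, a secreted lectin, averaged 8.91 ± 0.493 and 47.3 ± 12.0 CPM (edgeR adjusted p = 0.00426). Ly6e, a surface protein, averaged 34.7 ± 11.6 and 90.7 ± 13.6 CPM (edgeR adjusted p = 0.0229), and Phf11b 0.512 ± 0.283 and 4.45 ± 0.936 CPM (edgeR adjusted p = 0.0399). Of the feedback inhibitors, Socs3, which is induced by many cytokines, averaged 2963 ± 197 and 5048 ± 195 CPM and rose by 0.77 ± 0.09 on the log2 scale (edgeR adjusted p = 0.00685). Socs3 is also 1 of the 12 immediate-early genes and 1 of the 6 called among them. Socs1, the main brake on interferon receptors, averaged 93.9 ± 13.1 and 150 ± 36.9 CPM and was not called (edgeR adjusted p = 0.112).

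The 2 sham libraries differed from each other in part of the list. In sham 1, 12 of the 50 genes (24%) were at least 2-fold lower than in each of the other 3 libraries, against 7.01% of all genes with at least 10 counts. These were Oas1a, Oas2, Oas3, Oasl2, Mx2, Rsad2, Ifi44, Gbp3, Gbp9, Iigp1, Ifi203 and Ifi207. In sham 2 the same held for 2 genes, Parp14 and Irf5 (4%, against 5.85% of all genes). Ifi207 is the single gene of the 12 that was called higher, and without sham 1 its log2 fold change was 2.47 (edgeR adjusted p = 0.00469). Endothelial markers were low in the same library: their summed level was 15.1 CPM in sham 1, 63.5 CPM in sham 2, 66.8 CPM in ovariectomy 1 and 94.1 CPM in ovariectomy 2. Cdh5 and Emcn, which define endothelium and were picked after their values were seen, were at 0 in sham 1. Their part in the low values of sham 1 was not tested.

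Markers of other cells also moved with the groups. The summed level of 13 monocyte and macrophage markers was 69.1 and 80.3 CPM in the sham and 112 and 150 CPM in the ovariectomy libraries, with 0 of 11 tested genes called by edgeR. That of 8 B cell markers was 17.7 and 24.6 against 79.7 and 110 CPM, and Ebf1, which stromal cells also express and which was called higher, gave most of it (17.5 and 77.3 CPM on average). The 7 pan-leukocyte markers gave 52.6 and 41.7 against 49.98 and 64.5 CPM, with 0 of 7 called, and Ptprc had 214, 118, 84 and 124 counts. Fibroblast markers rose in 6 of 7 genes, with summed levels of 4674 and 7439 CPM in the sham and 8032 and 9628 CPM in the ovariectomy libraries. Chondrocyte markers fell in 6 of 7 genes and osteoblast markers in 4 of 7, beside 1.2% called lower among all genes tested. T and NK cell markers, carried by cells that make interferon-gamma, summed to 4.01 and 5.92 CPM in sham against 2.79 and 4.52 CPM in ovariectomy libraries. The 10 neutrophil markers summed to 141 and 89.7 CPM in sham against 186 and 290 CPM in ovariectomy libraries, with 2 called higher. Mpo, 1 of these 2, gave much of that difference, at 3.39 and 0.490 against 58.3 and 110 CPM. Ltf, the other most abundant marker of the list, overlapped between groups, at 45.8 and 42.3 against 33.1 and 73.0 CPM. In the same order, 8 erythroid markers summed to 48.9 and 29.6 against 136 and 171 CPM, with 2 of 7 tested called higher. Car1, 1 of these 2, gave much of that difference, at 0.134 and 0.712 against 51.3 and 87.1 CPM. Hba-a1, which was not called, stood at 20.5 and 12.2 against 34.3 and 32.1 CPM. The 7 pericyte and smooth muscle markers summed to 307 and 335 against 582 and 633 CPM, with 3 called higher. Rgs5, called higher, gave most of that difference, at 5.66 and 46.4 against 295 and 361 CPM. Cspg4, the most abundant of the 7 in sham, went the other way, at 284 and 266 against 214 and 222 CPM, and was not called. It was the only 1 of the 7 with a log2 difference below 0. Of all genes tested, 2.98% were called higher. The part of these cells in the interferon genes was not tested.

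**Figure D3:**
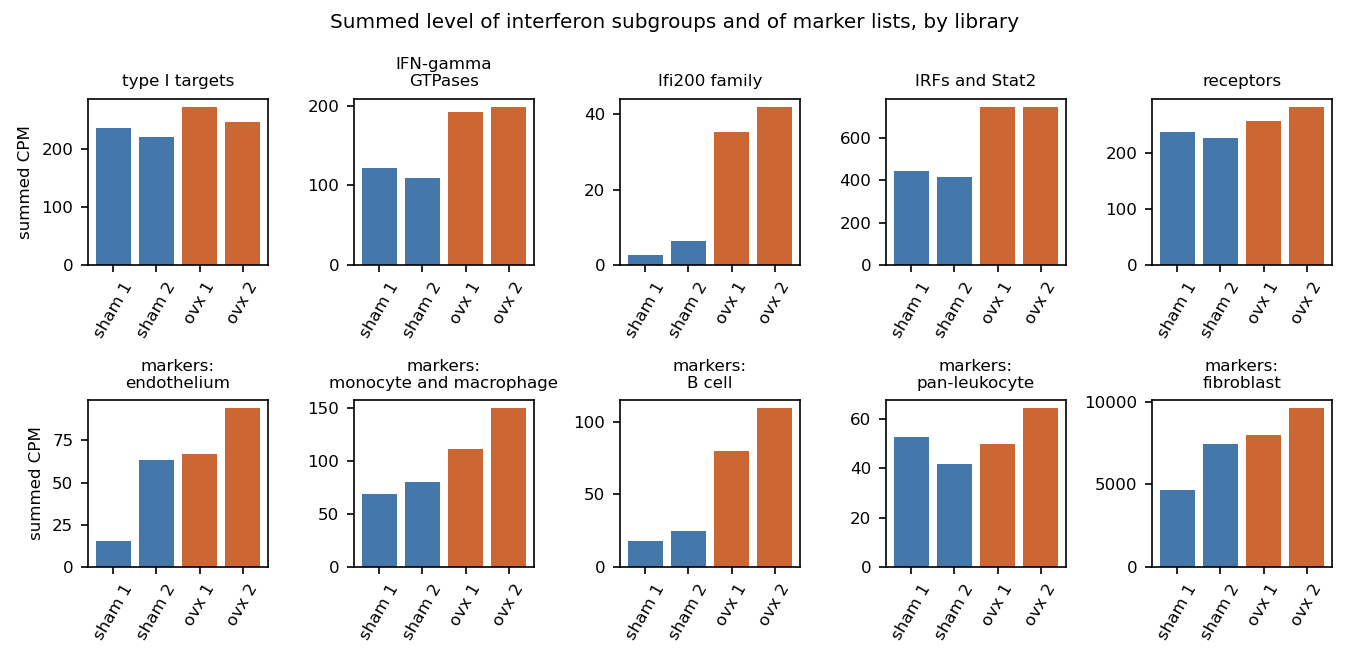
Summed TMM-scaled CPM (y axes from 0, a scale of its own in each panel) of 5 interferon subgroups and 5 marker lists in each library, with sham in blue and ovariectomy in orange. The Ifi200 family goes from 2.63 and 6.32 to 35.2 and 41.9 CPM while pan-leukocyte markers overlap between groups, and endothelial markers are lowest in sham 1.

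The calls depended on the libraries used. Without either ovariectomy library, edgeR called 0 of the 50 genes and 0 genes in all, with 14 (without ovariectomy 1) or 12 (without ovariectomy 2) of 49 interferon genes at an unadjusted p under 0.05, beside 9.23% and 8.40% of all genes. The 7 genes were higher after ovariectomy in each of the 4 fits that left out a library, with Irf1 between 1.11 and 1.19 and Ifi211 between 3.64 and 4.55 on the log2 scale. Without either sham library more of the interferon genes were called higher, and so were more genes in all. DESeq2 called 14 of the 50 higher, adding Ifit2, Oas2, Ifi44, Gbp9, Irgm1, Irf7 and Irf8 to the 7. It called 911 of 36106 genes higher in all, against 510 of 17120 in the edgeR fit used in the text.

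**Figure D4:**
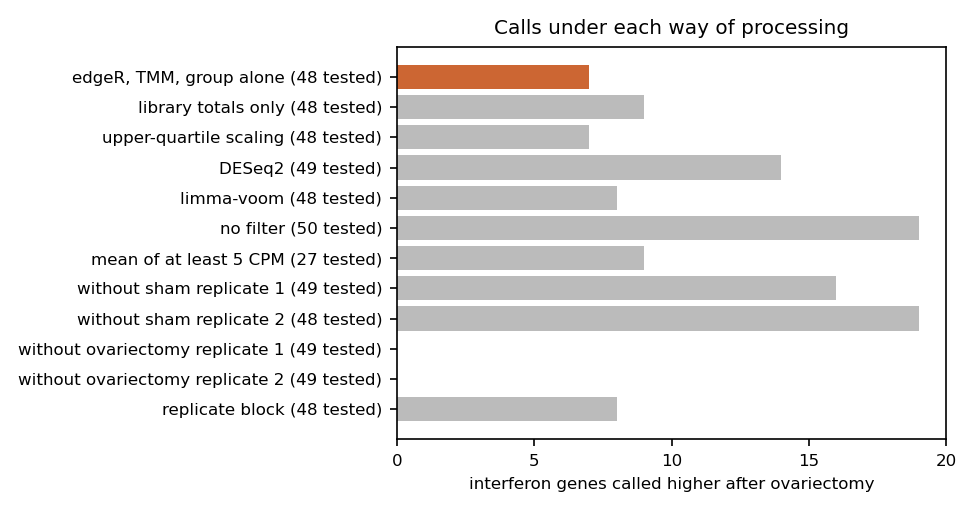
Number of the 50 interferon genes called higher after ovariectomy (x axis, from 0) under each way of processing, with the number tested in brackets. The orange bar is the edgeR fit used in the text with 7 genes, and both bars for fits without an ovariectomy library are at 0.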

How the data were processed

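The authors deposited raw counts per gene for 4 libraries. Trimming used Trim Galore 0.6.6 and counting featureCounts 2.0.1, on GRCm38 (mm10), per the submitters' processing notes. For the aligner, annotation release and strand setting, nothing is stated in the sources used here, so reads of overlapping or antisense genes cannot be told apart. Symbols came from GENCODE M21.

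Genes were kept by filterByExpr and scaled by TMM. edgeR 4.0.16 (R 4.3.3, limma 3.58.1) tested ovariectomy against sham, two-sided, by quasi-likelihood with group alone and Benjamini-Hochberg adjustment. Variation between replicates (common BCV) was 0.317 on 2 residual degrees of freedom. Each log2 fold change divided by the root of its F statistic gives its SE, and ± after a level is the SD (n = 2). The steps were tested on simulated data. All interferon genes were to be reported, and from each pathway class outside them up to 4 called genes with the smallest p. The members and lists were chosen with earlier results of these data known. Alternatives were other scalings, DESeq2 1.42.0, limma-voom, other filters, each library left out, and a replicate block. Some genes of the lists are not reported here.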

Additional observations from a re-analysis of the deposited data

How the results depend on the processing

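The main count of interferon genes called higher was 7. It was 14 with DESeq2, 19 with no filter and 0 to 19 with 1 library left out. None was called lower except 1, Ifit3, with no filter. For type I targets the count was 1, against 4 with DESeq2, 4 with no filter, 2 at a mean of at least 5 CPM and 0 to 7 with 1 library left out. RNA sensors had 0, against 1 with no filter and 0 to 1 with 1 library left out. GTPases had 2, against 4 with DESeq2, 6 with no filter and 0 to 5 with 1 library left out. The Ifi200 family had 3, and 0 to 4 with 1 library left out. IRFs and Stat2 had 1, against 3 with library totals, DESeq2, limma-voom or a mean of at least 5 CPM, 4 with no filter and 0 to 4 with 1 library left out. Pathway genes outside the 50 gave 9, against 15 with DESeq2, 18 with no filter and 0 to 18 with 1 library left out. All genes gave 716, against 1382 with DESeq2, 1656 with no filter, 1105 at a mean of at least 5 CPM and 0 to 1835 with 1 library left out. Every 0 came without an ovariectomy library, except for RNA sensors; the cause was not tested.

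With 1 library left out, the sign turned for the median of the RNA sensors (-0.040 to 0.42 on the log2 scale), Zbp1 (-0.34 to 1.39), Ifi27 (-0.033 to 0.15), Ddx58 (-0.040 to 0.42) and Gbp6 (-0.016 to 0.92). No interferon gene changed sign under another scaling. With library totals alone the median of all genes was 0.09 in place of -0.02, and 82.2% of called genes were higher in place of 71.2%. Ifi207 was not called with limma-voom (adjusted p = 0.0535).

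With the replicate number as a replicate block, 8 interferon genes were called higher (Irf8 in addition), 2 of the IRFs and Stat2, 14 pathway genes and 1074 genes in all. Same-numbered libraries did not deviate together (correlation 0.00), so the numbers were not taken to pair the samples. Depth limits genes with few reads, such as Oas2, Ifi44 and Gbp9, whose sham values rest on 2 counts.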
